A study of Mus musculus with 2 samples.

Results

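The 7 Msx and Dlx homeobox genes Msx1, Msx2, Dlx1, Dlx2, Dlx3, Dlx5 and Dlx6 were compared between the distal and the proximal part of mouse limb-mesenchymal organoids. They were chosen by symbol from a table of 13916 protein-coding genes, and all 7 had a row. Msx3 and Dlx4, the other genes of these families, were not analysed here. The organoids were grown from embryonic limb mesenchymal cells of Slc:ICR mice, kept for 48 h in medium with Fgf8b and Wnt3a, and frozen on day 2. The cells of both groups had therefore been exposed to the same FGF and WNT proteins. The 2 groups differed in the part of the section that was lit: cDNA was released by ultraviolet light (photo-isolation chemistry) from 5 distal regions or from 5 proximal regions. Per the labels, 5 organoids from 4 cultures were used, the regions of a side carried their own barcodes, and they were pooled into 1 library for each side. The side and the library were the same split, so their effects cannot be told apart, and p-values measure the spread between regions only.

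Msx and Dlx proteins are transcription factors that bind DNA through a homeodomain. Msx1 and Msx2 act mainly as repressors, are induced by bone morphogenetic protein (BMP) signalling, and mark the undifferentiated mesenchyme under the limb tip as well as the apical ectodermal ridge, the epithelium that rims it. Dlx genes lie in pairs that point towards each other and share enhancers. Dlx5 and Dlx6 are expressed in the ridge and in early cartilage, and their loss causes split hand and foot malformation.

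The homeobox is the coding stretch that the members share, and it is shown for the neighbours Dlx5 and Dlx6 because reads of similar genes could be confused. The sequences come from GENCODE M21 transcripts, run 5′ to 3′ on the coding strand, and capitals mark the bases that differ from the other gene of the pair.
Dlx5: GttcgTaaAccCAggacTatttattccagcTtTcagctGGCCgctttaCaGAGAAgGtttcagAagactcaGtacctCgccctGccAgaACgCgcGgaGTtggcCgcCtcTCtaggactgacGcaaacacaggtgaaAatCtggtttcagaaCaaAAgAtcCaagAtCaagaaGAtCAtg
Dlx6: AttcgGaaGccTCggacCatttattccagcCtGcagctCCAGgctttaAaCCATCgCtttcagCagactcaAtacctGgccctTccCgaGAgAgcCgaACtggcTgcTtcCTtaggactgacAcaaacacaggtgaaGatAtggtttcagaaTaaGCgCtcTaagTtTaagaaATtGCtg
Each stretch is 180 bases long. The homeoboxes of Dlx5 and Dlx6 are split over exons 2 and 3 of 3. Dlx5 and Dlx6 had the same base at 132 of 180 positions (73.3%). Over the 10 pairs of Dlx genes the identity was 66.1 to 81.7%, and the longest run of bases shared by the transcripts of a pair was 12 to 23 bases. Msx2 and Dlx6 transcripts shared a run of 44 bases that did not lie whole within the homeobox of both. Dlx1 and Dlx6 lie whole within antisense genes, Dlx1as and Dlx6os1. Whether the authors counted reads by strand is not given in the sources used here, so reads from each of these Dlx genes and from its antisense partner cannot be told apart.

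Across the whole table, an adjusted p under 0.05 was the rule for a call. The table gave this to 136 genes, 55 higher in distal and 81 higher in proximal. With all changes centred on their median, 0.07 on the log2 scale, the split was 44 towards distal and 100 towards proximal. Genes with few counts entered that median. Of 2265 genes whose recovered counts were all proximal, 1606 had a positive deposited log2 change, each with at most 3 counts. Over the 3757 genes that had means of 10 or more the median was 0.0047, and centring on it gave 54 towards distal and 83 towards proximal. The distal regions were shallower. The size factors, which scale each region by its depth, summed to 2.93 in distal and 9.65 in proximal, so 23.3% of the depth was distal, and regions held about 46991 to 118978 counts in distal and 214774 to 345649 in proximal. Limb mesenchyme markers were present, with a row for all 12 listed. Prrx1, a transcription factor of limb mesenchyme that was picked after its values were seen, stood at about 141 normalized counts in distal and 177 in proximal.

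**Figure D1:**
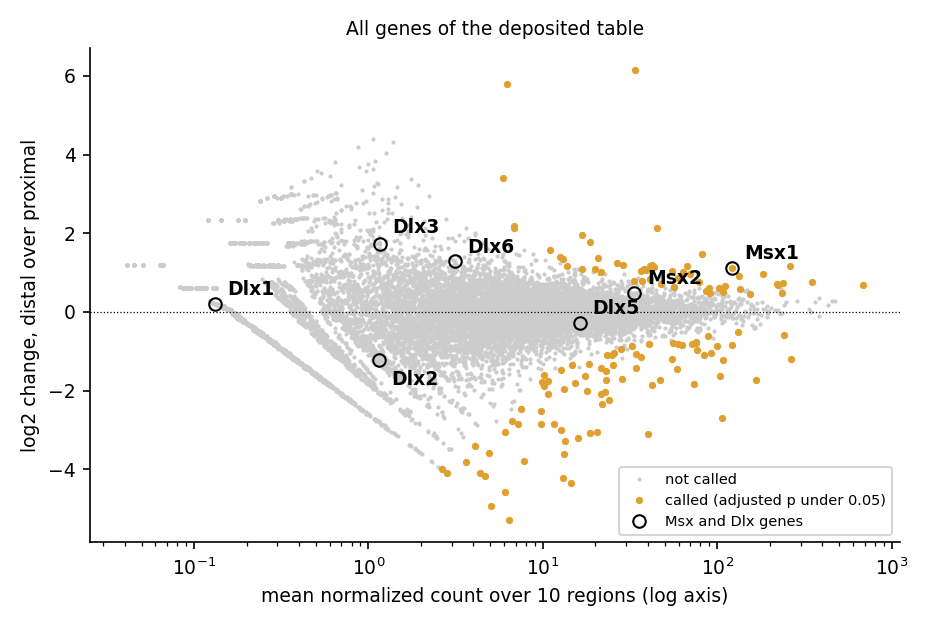
Log2 change of distal over proximal against the mean normalized count (log axis) for every gene of the authors' deposited table, with the called genes in orange and the Msx and Dlx genes circled. Msx1 sits among the called genes at a mean of 121, and the other members lie within the cloud of uncalled genes.

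Of the 7 members, Msx1 was called, higher in distal, where 0.977% of all genes were called. Calls towards distal made up 0.395% of all genes and calls towards proximal 0.582%. An unadjusted p under 0.05 was listed in the authors' deposited table for Msx1 and Msx2, both higher in distal, and for 6.07% of all genes, made up of 2.56% towards distal and 3.51% towards proximal. Of the 3 members with a mean of at least 10, Msx1 and Msx2 had a positive log2 change and Dlx5 a negative one in the authors' deposited table, where 50.6% of genes with such a mean had a positive one. The other 4 members had 25 counts or fewer. The median over the 7 members was 0.49 (log2) per the authors' deposited table.

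Msx1 (ENSMUSG00000048450, chr5:37820485-37824583, minus strand) rose in distal. Its levels, computed from the deposited mean and log2 change, were 166 normalized counts in distal and 76.1 in proximal, which correspond to about 485 and 735 counts. With counting error alone, exact Poisson limits (95%) of these levels were 151 to 181 in distal and 70.7 to 81.8 in proximal, so the 2 ranges lay apart. On the log2 scale the rise came to 1.12 ± 0.17 (SE), adjusted p 2.09e-08, per the authors' deposited table. As a fold this is 2.18, with a 95% interval of 1.73 to 2.73 from the deposited standard error. Counting alone would give a standard error of 0.084, so the deposited one was 1.99 times as large. The deposited one includes the spread between regions that the authors fitted, and counts of Msx1 per region were not recovered. By p-value Msx1 was number 13 of the table, and by size of the change number 22 of the 55 genes called higher in distal.

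The 250 bases before the RefSeq start of Msx1 are shown because it is the member that rose (GRCm38.p6, chr5:37824586-37824835, minus strand, 5′ to 3′). Capitals mark the 1 match to the GC box GGGCGG, in either orientation.
Msx1 promoter: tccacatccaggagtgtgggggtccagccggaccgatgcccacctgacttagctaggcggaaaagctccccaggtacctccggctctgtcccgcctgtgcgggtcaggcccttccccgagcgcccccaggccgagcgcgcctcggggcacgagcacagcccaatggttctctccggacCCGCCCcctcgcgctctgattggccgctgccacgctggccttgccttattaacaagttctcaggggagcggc
The motifs were searched on both strands. TAATTA and the related TAATTG hold the TAAT core that homeodomains bind, GGGCGG is the GC box, GGCGCC is a site bound by BMP-activated Smad proteins and TATAAA is the TATA box, and no matches in Msx1 overlapped. GGGCGG was found in 32.7% of 32851 RefSeq promoters of this length. Msx1 had no match to the other motifs, which were found in 4.84% of promoters for TAATTA, 7.17% for TAATTG, 9.59% for GGCGCC and 12.4% for TATAAA. Promoter entries matched 4 members, Msx1, Msx2, Dlx1 and Dlx2. Msx2 had 1 match each to TAATTA and GGGCGG, Dlx2 had 1 each to GGGCGG and GGCGCC, and Dlx1 had none. G and C made up 68.0% of the Msx1 stretch, where the median promoter had 52.4%.

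Msx2 (ENSMUSG00000021469, chr13:53466884-53473074, minus strand) was not called. Its computed levels were 39.0 normalized counts in distal and 27.8 in proximal, or about 114 and 269 counts. Poisson limits were 32.2 to 46.8 in distal and 24.6 to 31.4 in proximal, and these ranges narrowly missed each other. These limits leave out the spread between regions, and the deposited standard error was 1.52 times that of counting alone. They also leave out the error of computing the levels, which was not checked at this mean. At means of 2.5 to 3.5 its median was 5.36% in distal and 3.66% in proximal, so no separation is read from the ranges. Per the authors' deposited table its log2 change came to 0.49 ± 0.24 (SE), unadjusted p 0.0464 and adjusted p 0.893. The fold of 1.40 had a 95% interval of 1.01 to 1.95.

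The difference between the log2 changes of Msx1 and Msx2 was 0.63, with a 95% interval of 0.05 to 1.22 if their errors were independent. Both genes were measured in the same regions, and the table holds no covariance between them. A gene with the error of Msx2 needed a log2 change of 0.86 (1.81-fold) to reach the largest p among the called genes, 0.000465. With the error of Msx1, 0.59 was enough.

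**Figure D2:**
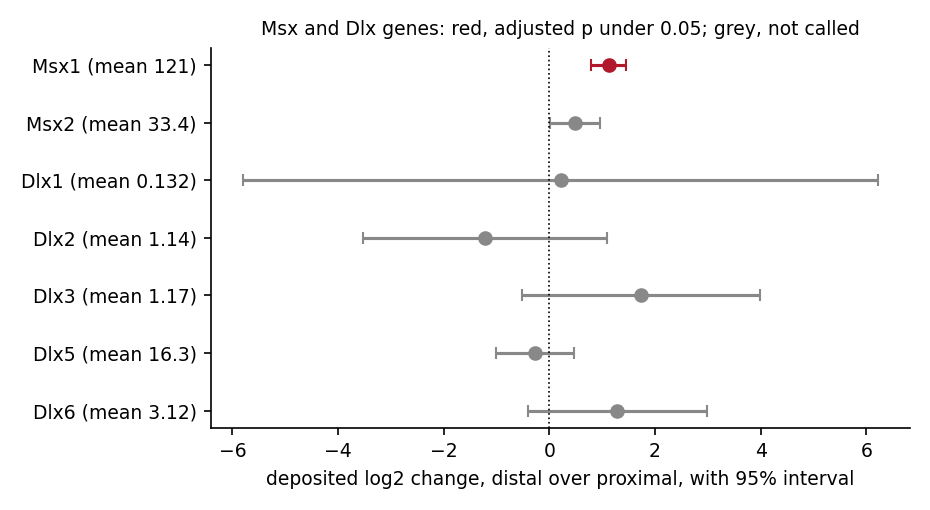
Log2 change of distal over proximal in the authors' deposited table for the 7 members, with 95% intervals from its standard errors and the mean normalized count beside each name. The interval of Msx1 lies at 0.79 to 1.45, that of Msx2 starts at 0.01, and those of the 5 Dlx genes cross 0.

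Dlx5 (ENSMUSG00000029755, chr6:6877805-6882085, minus strand) was the Dlx gene with the most counts, about 43.3 in distal and 172 in proximal. Its computed levels were 14.8 and 17.9 normalized counts. Poisson limits of 10.7 to 19.9 in distal and 15.3 to 20.7 in proximal overlapped. Per the authors' deposited table its log2 change came to -0.27 ± 0.38 (SE), adjusted p 0.991. The 95% interval of the fold ran from 0.495 to 1.38, so a distal level 2.18-fold higher, as estimated for Msx1, lay outside it. The interval leaves room for a lower distal level.

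Dlx6 (ENSMUSG00000029754, chr6:6863334-6868568, plus strand) lies 9.24 kb from Dlx5. Its mean was low enough for the whole counts of the 10 regions to be worked out from the deposited mean, error and log2 change. Regions are given by falling depth, since their numbers in the labels are not known. In that order, the distal regions held 2, 0, 3, 0 and 5 counts, and the proximal regions 4, 1, 3, 2 and 5 counts. The shallowest distal region thus held 50% of the distal counts, and the sides overlapped. Among 278 genes with a mean of 2.5 to 3.5 and at least 10 counts on each side, 33.8% had a distal region with at least this share. That percentage took any distal region, whatever its depth. The shallowest had a size factor of 0.329 of the distal sum of 2.93, and how often it held such a share was not counted. Normalized, Dlx6 stood at 4.60 ± 6.33 (SD, n = 5 regions) in distal and 1.65 ± 1.05 (SD, n = 5 regions) in proximal.

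For Dlx6 the authors' deposited table gave 1.29 ± 0.86 (log2, SE), adjusted p 0.991. Without the shallowest distal region the refitted log2 change was 0.26, and without each of the other regions it stayed positive, up to 1.68. Of the 25 counts, 40.0% were distal (95% exact binomial interval 21.1 to 61.3%), where 23.3% of the depth was distal. Dlx5 and Dlx6 had deposited log2 changes of opposite sign. Their difference was 1.56, with a 95% interval of -0.29 to 3.41 if the errors were independent, which includes 0.

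**Figure D3:**
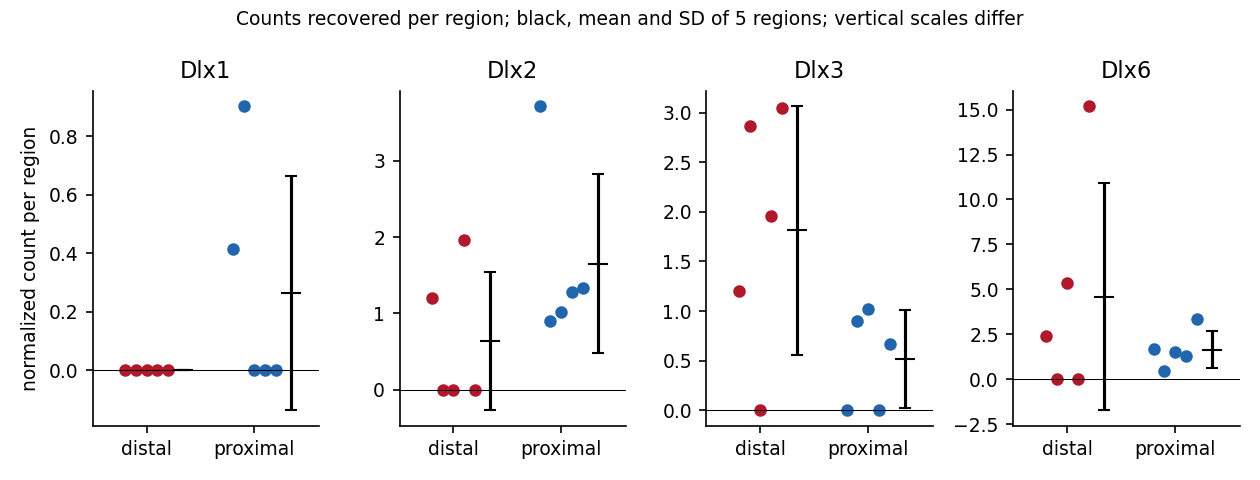
Normalized counts in each of the 5 distal (red) and 5 proximal (blue) regions for the 4 Dlx genes with recovered counts, in order of falling depth from left to right, with the mean and SD in black and a separate linear scale per gene. Single regions stand high in Dlx2 (3.72, proximal) and Dlx6 (15.2, distal), and Dlx1 has no distal count.

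Dlx3 (ENSMUSG00000001510, chr11:95120119-95125296, plus strand), a gene of skin and placenta development, had 10 counts in all. Distal regions held 1, 2, 0, 1 and 1 counts and proximal regions 0, 2, 2, 0 and 1, again in order of falling depth. Thus 4 of 5 distal and 3 of 5 proximal regions had a count, and the sides overlapped. Normalized counts were 1.81 ± 1.25 (SD, n = 5 regions) in distal and 0.519 ± 0.491 (SD, n = 5 regions) in proximal. The ratio of summed counts over size factors was 3.30, with an exact interval of 0.759 to 14.3. Per the authors' deposited table the log2 change came to 1.74 ± 1.15 (SE), adjusted p 0.991. Leaving out each region in turn kept the refitted change between 1.37 and 2.15.

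Dlx2 (ENSMUSG00000023391, chr2:71543408-71546754, minus strand) is best known from forebrain interneurons and the branchial arches. It had 2 distal counts, 1 in each of 2 regions, and 17 proximal counts. The deepest proximal region held 9 of these, and the other proximal regions held 2 each. The highest distal region, at 1.96 normalized counts, lay above 4 of the 5 proximal regions, so the sides overlapped. The ratio of summed counts over size factors was 0.388, with an exact interval of 0.0435 to 1.63. Its log2 change was -1.22 ± 1.18 (SE), adjusted p 0.991, per the authors' deposited table. Refitted without the deepest proximal region, it was -0.63. Normalized, the distal mean was 0.632 ± 0.906 and the proximal mean 1.65 ± 1.17 (SD, n = 5 regions each).

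Dlx1 (ENSMUSG00000041911, chr2:71528113-71533981, plus strand) lies 9.43 kb from Dlx2 and had 3 counts, 1 and 2 in the 2 deepest proximal regions. No distal region had a count, which allows a distal level of up to 1.26 normalized counts by the exact two-sided Poisson limit (95%) used above, and 1.02 by a limit of 3 counts on that side. Its log2 change per the authors' deposited table, 0.21 ± 3.07 (SE), is positive although no count was distal. Since both sides stood at 3 counts or fewer, no fold is given, and a difference was not detectable at this depth. With the deposited errors, a call would have needed a log2 change of 1.32 for Dlx5, 3.03 for Dlx6, 4.03 for Dlx3 and 4.11 for Dlx2.

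The nearest other protein-coding genes of the table on each side of the 5 loci were compared next. None of these 10 neighbours was called, with the lowest adjusted p at 0.991 per the authors' deposited table. Cytl1, 80.7 kb from Msx1, stood at -0.27 ± 0.61 (log2, SE) and Stx18, 214 kb away on the other side, at 0.45 ± 0.49, both per the authors' deposited table. Sem1, a proteasome subunit gene 285 kb from Dlx6, had the smallest error of the 10, at -0.05 ± 0.16 (log2, SE) per the authors' deposited table. Sdhaf3, 73.9 kb from Dlx5, stood at -1.07 ± 0.79 per the authors' deposited table. The other neighbours were Sptlc1, Drd1, Metap1d, Itga6, Itga3 and Kat7.

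BMP signals induce Msx and Dlx genes, so the genes of that pathway were read from the same table. Of 32 listed, 31 had a row and 1 was called, Id3, which was higher in distal. Of all genes, 0.977% were called. An unadjusted p under 0.05 was listed in the authors' deposited table for 4 of the 31 towards distal and 5 towards proximal. Over all genes these shares were 2.56% and 3.51%. The median over the 31 was -0.11 (log2) per the authors' deposited table. Id3, an inhibitor of bHLH factors that BMP induces directly, rose by 0.44 ± 0.12 (log2, SE), adjusted p 0.0345, per the authors' deposited table. Its computed levels were 177 normalized counts in distal and 130 in proximal. None of the other early targets was called. Id1 stood at -0.02 ± 0.19, Id2 at -0.54 ± 0.21 and Id4 at -0.59 ± 0.36 (log2, SE) per the authors' deposited table. Gata2 stood at -0.56 ± 0.79 per the authors' deposited table.

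None of the 6 ligands, 6 receptors, 4 signal transducers or 9 inhibitors with a row was called. Among ligands, the authors' deposited table gave Bmp2 0.71 ± 0.30 (log2, SE; adjusted p 0.544) and Gdf5, a joint-forming ligand, -1.07 ± 0.43 (adjusted p 0.460). Among receptors, Bmpr1a stood at -0.12 ± 0.21 and Bmpr2 at -0.11 ± 0.24 (log2, SE) per the authors' deposited table. Of the intracellular transducers, Smad5 had -0.06 ± 0.18 and Smad4 0.41 ± 0.20 per the authors' deposited table, and of the secreted inhibitors Nog had 0.19 ± 0.36 and Twsg1 -0.13 ± 0.22. Of 3 genes for proteins that bind Msx or Dlx proteins, none was called, and the authors' deposited table gave -0.23 ± 0.18 for Maged1 and 0.24 ± 0.32 for Pias1 (log2, SE).

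Of the 9 inhibitors, 3 had at most 3 distal counts, and they are named for that, after their values were seen. Fst stood at 0.286 normalized counts in distal and 5.49 in proximal (1 and 54 counts), Grem1 at 0.598 and 3.82 (2 and 38 counts) and Chrd at 1.04 and 3.70 (3 and 38 counts). None was called, with adjusted p 0.116, 0.755 and 0.953 per the authors' deposited table. The other 6 did not share this: Nog, Smad6 and Smad7 had positive log2 changes and Bambi, Twsg1 and Bmper negative ones between -0.52 and -0.13 per the authors' deposited table.

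**Figure D4:**
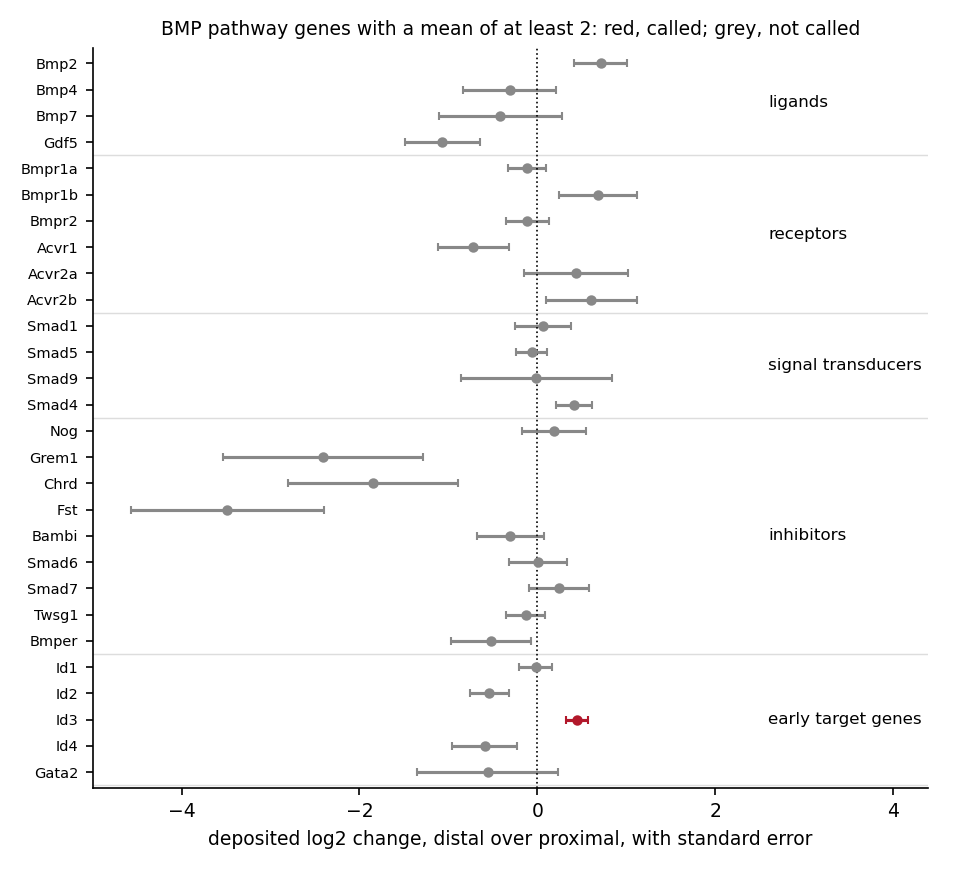
Log2 change of distal over proximal with its standard error in the authors' deposited table, for 28 BMP pathway genes with a mean of at least 2, grouped by role. Id3 (red) is the called gene, at 0.44, and ligands, receptors and inhibitors lie on both sides of 0.

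Msx and Dlx genes are also expressed by the apical ridge, so ectoderm markers were read on both sides. Of 24 markers 12 had a row and none was called, and 7 of the 12 stood at 3 counts or fewer on both sides. No distal count was found for 6 of the 12, at a proximal depth 3.30 times the distal one. Of markers named after their values were seen, Krt14, the keratin of basal epidermis, and Cdh1, epithelial cadherin, had 1 count each, in proximal, and Trp63 had 3, all proximal. Epcam had 2 distal and 4 proximal counts and Grhl3 had 1 and 2, so that their normalized levels were 0.678 and 0.609 in distal and 0.459 and 0.235 in proximal. Differences at such counts were not detectable at this depth. The summed level of the 12 was 82.6 normalized counts in distal and 74.3 in proximal, of which Cdh3 made up 75.6 and 67.7. Sp9, a ridge factor, stood at 0.27 ± 0.65 (log2, SE) per the authors' deposited table. Between the sides, fewer cells of a type and less RNA per cell cannot be told apart.

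Markers of other cell types were read in the same way, as they could differ between the sides along with Msx1. For comparison with these lists, calls over the whole table came to 0.977% of genes, with 0.582% towards proximal and 0.395% towards distal. Of 8 skeletal muscle markers, 4 were called, all higher in proximal (Myog, Myl1, Tnnt1 and Actc1). The summed level of the list was 10.0 normalized counts in distal and 108 in proximal, of which Actc1 made up 8.27 and 71.5. In distal, 7 of the 8 had at most 3 counts, and Myf5, Pax3 and Pax7, named here because of that, had none. Their proximal counts were 27, 19 and 2, at a proximal depth 3.30 times the distal one. For Pax7 a difference was not detectable at this depth. Of 7 cartilage and bone markers with a row, Sox9, the regulator of cartilage formation, was called higher in distal, at 0.69 ± 0.13 (log2, SE), adjusted p 4.7e-05, per the authors' deposited table, and the summed level of the 7 was 1184 in distal and 801 in proximal, of which Sox9 made up 842 and 522. Acan, a cartilage matrix gene picked after its values were seen, stood at -1.57 ± 0.74 (log2, SE; unadjusted p 0.0345, adjusted p 0.790) per the authors' deposited table. The 12 limb mesenchyme markers summed to 584 normalized counts in distal and 678 in proximal. Among them Pdgfra and Tbx5 were called, both higher in proximal, at -0.86 ± 0.15 and -1.41 ± 0.32 (log2, SE) per the authors' deposited table. A positive log2 change was found for 3 of the 12. Of these Lhx9, picked after its values were seen, stood at 0.51 ± 0.21 (log2, SE; unadjusted p 0.0141, adjusted p 0.499) per the authors' deposited table. Endothelial and blood markers (5 of 10 with a row) summed to 2.51 and 1.80 normalized counts in distal and proximal, with Ptprc and Cdh5 the highest by mean, and none was called. All 5 had at most 3 distal counts, and 3 of them stood at 3 counts or fewer on both sides. Differences at such counts were not detectable at this depth. The part of these lists in the Msx1 difference was not tested.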

How the data were processed

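The file analysed was the authors' deposited table of distal against proximal, limited to protein-coding genes. Its mean column is a signal in normalized counts, which the authors averaged over regions, per the file headers. The log2 change and its error were fitted by the authors, with positive values higher in distal. The deposited test statistic, a score, equals the log2 change over its error to within 1.91e-06. The deposited p-value was adjusted by the authors over about 18350 features, read from 332 values, of which 86.1% gave a whole rank within 0.05. Builds mm10 and GRCm38 are named in the submitters' processing notes. The aligner and counting are not given in the sources used here.

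No count test was run, since the table holds no value per region. The lowest means repeat in steps of 1 count over a region's size factor. A step shared by at least 20 genes that was no sum of lower steps was accepted, which gave 10 size factors. Sides were assigned by whether the log2 change rose from 1 to 2 counts in a region, which follows the sign of the authors' contrast. Exactly 1 set of whole counts gave the deposited mean for each of 4624 genes whose mean was at most 1.2, to within 1e-08 on the sum of counts over size factors. A negative binomial refit gave the deposited log2 change within 0.001 for all 882 of these with at least 10 counts. For the 12 listed genes with means from 1.2 to 3.5, up to 10 sets matched and the refit left 1. For Msx1, Msx2 and Dlx5, counts per side were computed from the mean and log2 change. Among 278 genes with means of 2.5 to 3.5 this had a median error of 5.36% in distal and 3.66% in proximal. The 95th percentiles of the error were 13.6% and 10.2%. The means of Msx1, Msx2 and Dlx5, at 121, 33.4 and 16.3, lie above that window, and the error there was not checked. Intervals and floors cover counting error only.

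The members and lists (12 lists, 104 genes, 82 with a row) were chosen with earlier results of these data known. By rule, the genes named are all members, called list genes, the 2 list genes of highest mean where none was called, and the nearest genes on each side of a locus. Further list genes were named outside this rule, to fill in a list or after their values were seen. A marker list, a gene of the BMP lists and a sequence are not reported here. Gene positions are from GENCODE M21 and promoters from RefSeq GRCm38.p6. Python 3.11.15, numpy 2.4.6 and scipy 1.17.1 were used, and the search was tested on simulated data. Alternatives were other thresholds, adjustments, centring, a ratio of summed counts, other step rules and floors, and each region left out in turn.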

Additional observations from a re-analysis of the deposited data

Results flagged for a closer look

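Among the region counts recovered for the Dlx genes, 7 groups of 5 regions with any spread were checked for a region far from the others. The deepest proximal region stood apart for Dlx2, at 3.72 normalized counts, where the other 4 proximal regions lay between 0.905 and 1.33. The gap made up 0.849 of the range of the group, against a critical value of 0.71 (Dixon's rule). For normally distributed values chance passes this in about 1 in 20 groups. Counts this low over unequal size factors are not such values, so that rate need not hold here. This region held 52.9% of the proximal counts of Dlx2. Of 215 genes with a mean of 1.0 to 1.2 and at least 10 proximal counts, 7.91% had a proximal region, of any depth, with at least this share.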

How the results depend on the processing

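Msx1 was the called member under all 7 other call rules tried, and no other member was called under any of them. The number of called genes was 89 at a threshold of 0.01 and otherwise stayed within 1.5 times 136, at 96 to 161. Centring on the median of all genes left the sign of every member, with Msx1 at 1.05, and centring on the median of genes with means of 10 or more, chosen after seeing the data, gave 1.12 and 137 called genes. Dlx1 reversed to -1.09 as a ratio of summed counts with 0.5 added, since its 3 counts were all proximal. Leaving out each region in turn, an alternative chosen after seeing the data, gave -1.67 to -0.63 for Dlx2, 1.37 to 2.15 for Dlx3 and 0.26 to 1.68 for Dlx6, and was not possible for Msx1, Msx2 and Dlx5. With a floor of 1 count, 1 member was at the floor in distal and 0 in proximal. Steps shared by at least 10 genes gave the same size factors, and a limit of 30 genes gave no full set. No paired analysis was possible because same-numbered regions of the sides could not be matched, as the deposited values are not split by region. Depth limits the distal side most.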
